A study of Mus musculus with 14 samples.

Results

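The 7 mammalian sirtuin genes, Sirt1 to Sirt7, were followed in the mouse left ventricle at rest and 3 days after transverse aortic constriction (TAC), the narrowing of the aorta that loads the left ventricle with pressure, with and without the gene for H11 kinase/Hsp22 (Hspb8). Members were all probe sets that the array annotation assigns to exactly 1 of these 7 symbols. This gave 9 of the 45101 probe sets on the array, 1 for each gene except Sirt5, which had 3. Of these, 8 passed the filter on low values, and the third Sirt5 probe set (1432105_at) did not, with log2 values of 3.72 to 4.16 on all arrays. Within the family the probe sets were taken by gene name alone, but the family was chosen with earlier results of these data known.

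Sirtuins are enzymes that remove acetyl or longer acyl groups from lysines and consume NAD+ for each group removed, so that their activity depends on the supply of NAD+. Sirt1, Sirt6 and Sirt7 are mainly nuclear, Sirt2 is mainly cytosolic, and Sirt3, Sirt4 and Sirt5 reside in mitochondria, where Sirt3 is the main deacetylase and Sirt5 removes succinyl, malonyl and glutaryl groups. In the heart the family is known for its links to fatty acid oxidation, antioxidant defence and hypertrophic growth.

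Each of the 14 arrays was hybridised with total RNA from the left ventricle of male C57BL/6 mice. The 4 groups were wild-type (Hsp22 WT) mice in the basal condition without pressure overload (3 arrays), Hsp22 knockout mice in the basal condition (3 arrays), wild-type mice after TAC surgery (4 arrays) and Hsp22 knockout mice after TAC surgery (4 arrays). The labels give no age, no promoter or Cre driver for the deletion and no sham operation, and they do not say which part of the gene was removed. Nor do they say whether arrays come from different animals, and the p-values then cover array-to-array spread alone. All values are log2 expression values, on which a difference of 1 is a doubling.

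Hspb8 was lower on every knockout array than on every wild-type array of the same condition for all 3 of its probe sets. Of these, 2 lay at 10.26 or higher on every wild-type array and at 5.92 or lower on every knockout array. The third lay at 9.66 to 10.01 and 8.42 to 8.84 at rest and at 8.79 to 9.32 and 8.20 to 8.73 after TAC. All 10 cardiomyocyte markers passed the filter and averaged 13.89 to 13.91 in the 4 groups, and 1 of them, Actc1, rose in wild type (0.22, limma adjusted p = 0.0441). Of 10 macrophage markers 8 rose with TAC in each genotype, and their average was 8.77, 9.08, 9.92 and 10.31 in basal wild type, basal knockout, TAC wild type and TAC knockout. Fibroblast markers rose for 6 of 8 in each genotype, while 1 of 8 fell in wild type. Endothelial markers fell for 3 of 8 in wild type and 2 of 8 in knockout, and smooth muscle markers rose for 2 and 3 of 7 and fell for 1 of 7 in each. By the same test 27.8% of all probe sets rose and 22.4% fell in wild type, and 23.0% and 20.2% in knockout. With 7 or 8 markers, the endothelial and smooth muscle counts are not read as a change in these cells. Of 3 neutrophil markers past the filter 2 rose in knockout, of 2 lymphocyte markers both fell in wild type, and of 2 skeletal muscle markers 1 rose in wild type. The 1 adipocyte marker past the filter, Adipoq, did not change by the test (limma adjusted p = 0.24 in wild type and 0.411 in knockout). Ly6g, Mpo, Cd3d, Plin1, Myh4 and Myh2 were among those with no probe set past the filter. This includes genes without any probe set of their symbol alone. Such a probe set existed for 4 of 5 listed neutrophil markers, 5 of 6 lymphocyte markers and 3 of 5 adipocyte markers. TAC wild-type array 3 stood apart, with a mean correlation of 0.948 with its own group against 0.955 to 0.987 for the other 13 arrays, a macrophage average of 11.11 and a cardiomyocyte average of 13.61. Dates in the scan-file names of the labels separate the TAC arrays from the basal arrays, so date and surgery cannot be told apart. All 8 TAC arrays carry the same date, and basal knockout array 3 carries another date than the other 5 basal arrays.

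Sirt3 and Sirt2 lie on chromosome 7 of GRCm38.p6, Sirt3 at chr7:140863663-140882309 and Sirt2 at chr7:28766752-28788665, and each starts head to head with a gene on the other strand. The other sirtuin genes lie at chr10:63319005-63339035 (Sirt1), chr5:115478006-115490264 (Sirt4), chr13:43365389-43395203 (Sirt5), chr10:81621787-81627792 (Sirt6) and chr11:120618371-120625014 (Sirt7). The start of Sirt3 lay 85 bases from that of Psmd13, which encodes a regulatory subunit of the proteasome, and the start of Sirt2 lay 108 bases from that of Nfkbib, which encodes an inhibitor of NF-kappa-B. The stretches between these starts are shown, from the RefSeq promoter table, because these were the sirtuins with the largest falls after TAC and each stretch separates 2 genes whose values can be set side by side. The Sirt3 stretch is chr7:140882310-140882393 on the minus strand, 84 bases with 69% G or C, and the Sirt2 stretch is chr7:28766645-28766751 on the plus strand, 107 bases with 51.4% G or C. Both are written 5′ to 3′ towards the sirtuin, so the first base lies beside the start of Psmd13 or Nfkbib and the last beside the sirtuin start. The names before each sequence give the pair and not the direction. Capitals mark the only match to the ETS motif CCGGAA on either strand, here read from the other strand and at the Psmd13 end.
Sirt3 to Psmd13: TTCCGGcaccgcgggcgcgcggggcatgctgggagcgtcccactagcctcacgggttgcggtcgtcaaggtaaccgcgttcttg
Sirt2 to Nfkbib: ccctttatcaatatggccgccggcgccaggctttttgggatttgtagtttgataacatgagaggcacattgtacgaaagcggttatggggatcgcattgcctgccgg

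Matches to 2 short motifs, chosen after the sequences were seen, were counted on both strands in the RefSeq windows around the sirtuin starts (250 bases before to 50 bases after). The 7 genes have 9 such windows, since Sirt3 and Sirt6 have 2 starts each. The ETS motif CCGGAA was found in 4 of the 9, at Sirt4, Sirt7 and 1 start each of Sirt3 and Sirt6, while the other start of Sirt3 and of Sirt6 held none, and in 14.9% of all 32851 windows. The E-box CACGTG was found in 1 of the 9, at Sirt1, with 2 matches beginning 115 and 43 bases before the start, and in 7.15% of all windows. The window of Sirt2 held neither motif, and nor did that of Sirt5. No 2 of these matches overlapped, and a match describes letters only.

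After TAC in wild-type hearts, Sirt3 was 1.8-fold lower, Sirt2 1.53-fold lower and Sirt6 1.34-fold lower, and 1 of the 2 measurable Sirt5 probe sets was 1.35-fold lower. Sirt1, Sirt4, Sirt7 and the other Sirt5 probe set did not pass the test (limma, Benjamini-Hochberg adjusted p under 0.05 over 24525 probe sets). Thus 4 of 8 sirtuin probe sets were called, all lower, where 50.2% of all probe sets were called, 27.8% higher and 22.4% lower. Of all calls in wild type 55.4% were higher, but 45.8% after quantile normalization and 65% after median centring. The share of sirtuin probe sets called was therefore near that of the array as a whole. The same 4 were the ones whose TAC and basal arrays did not overlap, against 49.6% of all probe sets, 23.0% lower. The median difference of the 8 was -0.29 and that of all probe sets 0.04. The change of a transcript in whole ventricle can come from fewer cells of a type or from less RNA per cell, and these cannot be told apart.

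**Figure D1:**
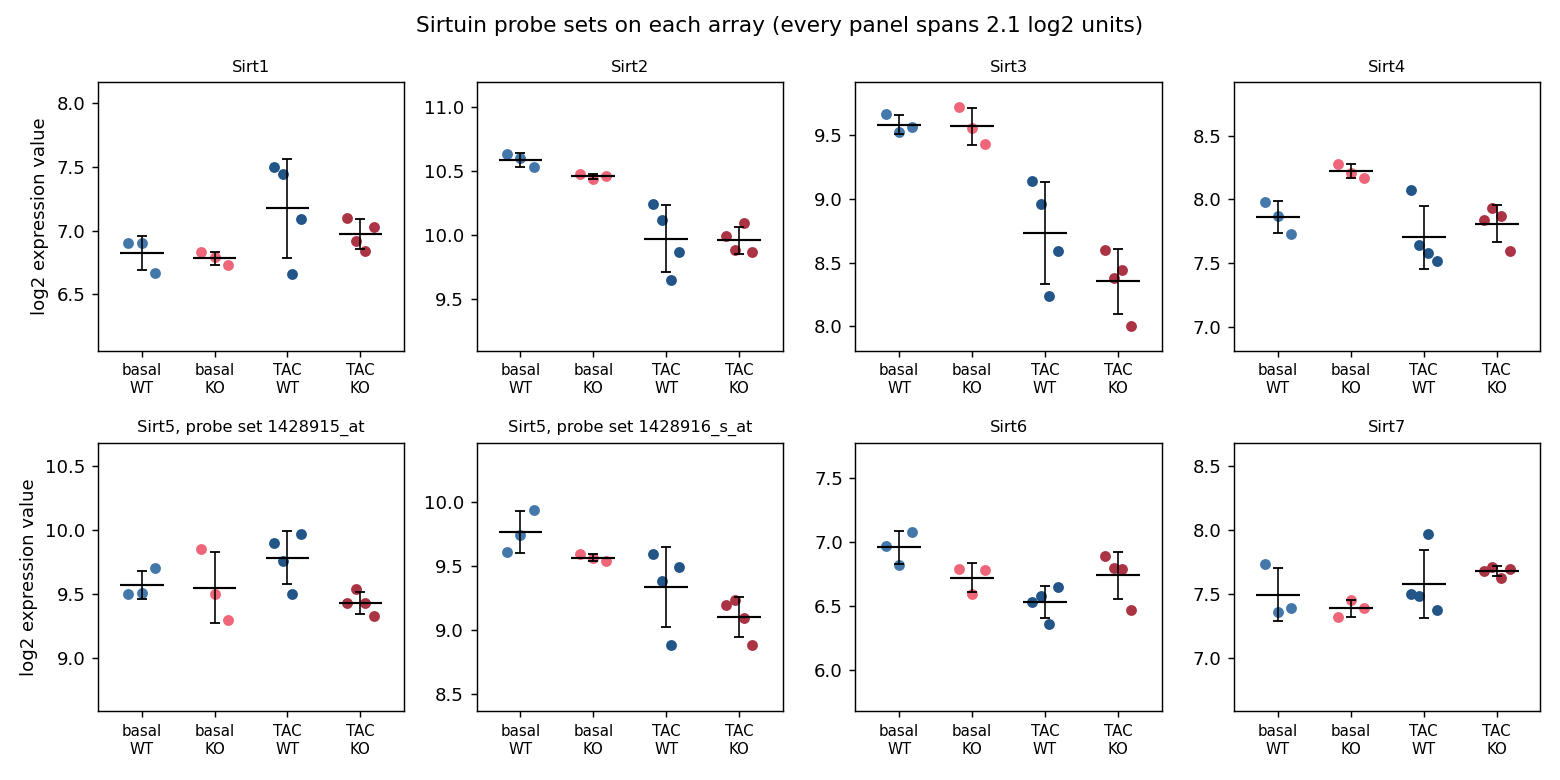
Log2 expression value (y axis, 2.1 log2 units in every panel) of the 8 sirtuin probe sets on each array, by group (x axis); points are arrays, horizontal lines group means and bars 1 SD (n = 3, 3, 4 and 4). Every TAC array lies below every basal array of its genotype for Sirt2, Sirt3 and Sirt5 1428916_s_at, and the Sirt6 panel shows the same in wild type only, with the groups overlapping in knockout.

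Sirt3, the mitochondrial deacetylase of fatty acid oxidation and antioxidant enzymes, read 9.66, 9.52 and 9.56 on the basal wild-type arrays and 9.14, 8.96, 8.24 and 8.59 on the TAC wild-type arrays. In knockout hearts it read 9.72, 9.55 and 9.43 at rest and 8.60, 8.38, 8.44 and 8.0 after TAC. All 8 TAC arrays lay below all 6 basal arrays, and the lowest wild-type value was on array 3, the array with the highest macrophage average. The difference was -0.85 (SE 0.19, 95% interval -1.26 to -0.44, limma adjusted p = 0.00308) in wild type and -1.21 (SE 0.19, interval -1.62 to -0.80, limma adjusted p = 0.000548) in knockout. Only 4% of probe sets had a lower difference than Sirt3 in wild type, and 1.37% in knockout. Without TAC wild-type array 3 the wild-type difference was -0.68 (limma adjusted p = 0.00565). Macrophage and fibroblast averages rose in the same arrays. Cardiomyocyte averages of the groups stayed between 13.89 and 13.91, while single TAC wild-type arrays spread from 13.61 on array 3 to 14.06. The part of cell composition in the fall was not tested.

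Sirt2, a deacetylase of tubulin and other cytosolic proteins, read 10.63, 10.60 and 10.53 in basal wild type, and 10.24, 10.12, 9.65 and 9.87 after TAC. In knockout it read 10.48, 10.44 and 10.46 at rest and 9.99, 9.88, 10.09 and 9.87 after TAC. Here too every TAC array was lower than every basal array, and array 3 again gave the lowest wild-type value. The differences were -0.62 (SE 0.13, interval -0.89 to -0.34, limma adjusted p = 0.00184) and -0.50 (SE 0.13, interval -0.78 to -0.23, limma adjusted p = 0.00739). Across the 14 arrays Sirt2 and Sirt3 correlated with r = 0.944, and with r = 0.878 after group means were taken out, a description of arrays that share groups and dates.

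Sirt6, a chromatin-bound deacetylase that restrains glycolytic genes, was measured at 6.97, 6.82 and 7.08 in basal wild type and at 6.53, 6.58, 6.36 and 6.65 after TAC. In knockout its values were 6.79, 6.59 and 6.78 at rest and 6.89, 6.80, 6.79 and 6.47 after TAC. The wild-type groups were apart and the knockout groups overlapped. The difference was -0.43 in wild type (SE 0.12, limma adjusted p = 0.0108) and 0.02 in knockout (interval -0.24 to 0.28, limma adjusted p = 0.916, and -0.02 after quantile normalization). The wild-type call was lost without basal wild-type array 3 (limma adjusted p = 0.0503).

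In knockout hearts, 4 of 8 sirtuin probe sets were again lower after TAC and none was higher, where 43.2% of all probe sets were called and 20.2% were called lower. The share called in either direction was once more close to that of all probe sets. These 4 were Sirt3, Sirt2 and Sirt5 1428916_s_at, which were also called in wild type, and Sirt4, which was not. The median of the 8 was -0.26, against 0.00 for all probe sets.

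Sirt4, a mitochondrial sirtuin that acts on glutamate dehydrogenase and leucine metabolism, read 8.28, 8.21 and 8.17 in basal knockout and 7.84, 7.93, 7.87 and 7.60 after TAC. Its wild-type values were 7.98, 7.87 and 7.73 at rest and 8.07, 7.64, 7.58 and 7.52 after TAC. Basal knockout arrays were the highest of all 4 groups, and the wild-type groups overlapped. The TAC difference was -0.41 in knockout (SE 0.13, limma adjusted p = 0.0255) and -0.16 in wild type (interval -0.45 to 0.13, limma adjusted p = 0.341). The knockout call was lost without basal knockout array 1 or 2 or without TAC knockout array 4 (limma adjusted p = 0.0787, 0.0605 and 0.0704).

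**Figure D2:**
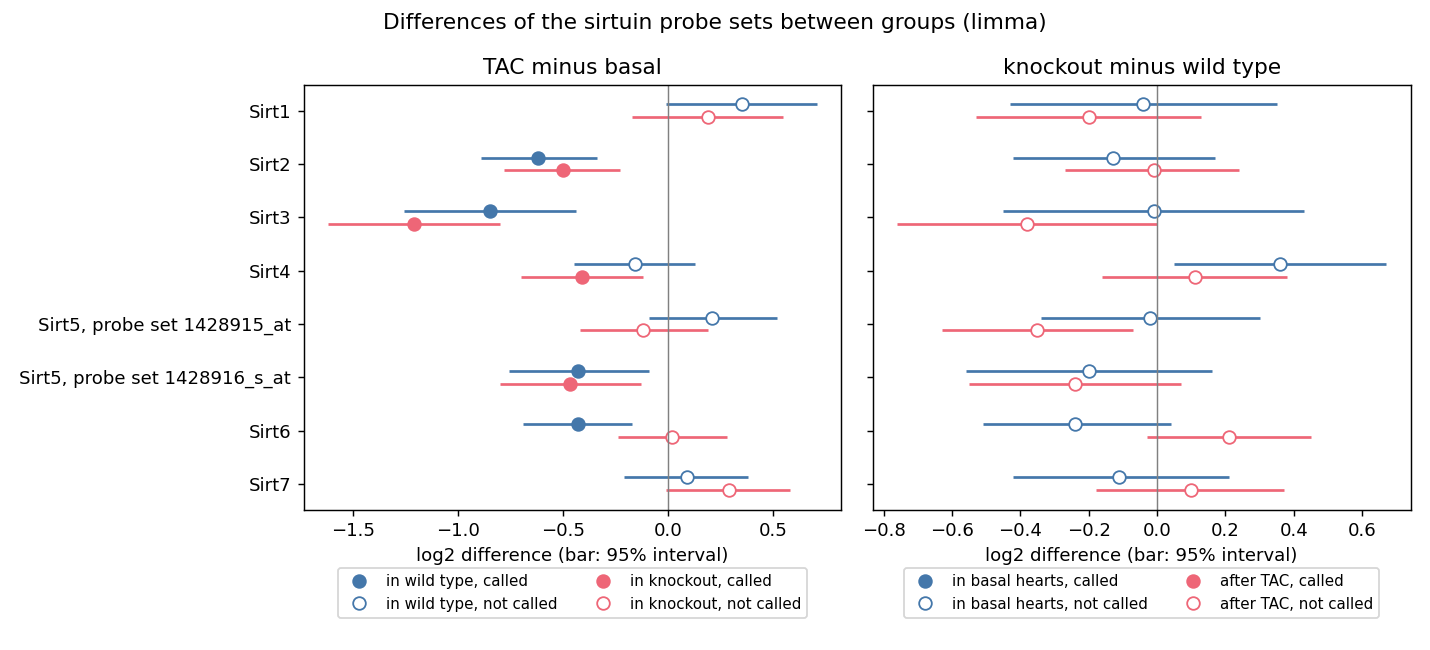
Log2 difference (x axis) with its 95% interval for each sirtuin probe set (y axis), TAC minus basal on the left and knockout minus wild type on the right; filled points passed the limma test at adjusted p under 0.05. The filled points are all on the left and all below 0, from -0.41 for Sirt4 in knockout to -1.21 for Sirt3 in knockout.

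Sirt5, the mitochondrial desuccinylase, gave different readings on its 2 measurable probe sets. On 1428916_s_at it read 9.61, 9.74 and 9.94 in basal wild type and 9.59, 9.38, 8.88 and 9.49 after TAC, and in knockout 9.59, 9.56 and 9.54 at rest and 9.19, 9.23, 9.09 and 8.88 after TAC. The TAC arrays lay below the basal arrays in both genotypes, with TAC wild-type array 1 at 9.59 next to basal wild-type array 1 at 9.61. The differences were -0.43 (SE 0.16, limma adjusted p = 0.0344) and -0.47 (SE 0.16, limma adjusted p = 0.0272). The wild-type call was lost without basal array 2 or 3 or TAC array 3 (limma adjusted p = 0.072, 0.134 and 0.0791). The knockout call was lost without basal knockout array 1, 2 or 3 or TAC knockout array 3 or 4 (limma adjusted p = 0.0724, 0.0655, 0.0605, 0.0523 and 0.0746).

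On 1428915_at, Sirt5 read 9.50, 9.51 and 9.70 in basal wild type and 9.90, 9.76, 9.50 and 9.97 after TAC. Its knockout values were 9.85, 9.50 and 9.30 at rest and 9.43, 9.54, 9.43 and 9.33 after TAC. The groups overlapped in both genotypes. The differences were 0.21 (interval -0.09 to 0.52, limma adjusted p = 0.22) and -0.12 (interval -0.42 to 0.19, limma adjusted p = 0.515).

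The gap between these Sirt5 probe sets, 1428915_at minus 1428916_s_at, compares the change of both within an array and was tested after the values had been seen. It was -0.11, -0.23 and -0.24 in basal wild type and 0.31, 0.38, 0.62 and 0.48 after TAC. In knockout it was 0.26, -0.06 and -0.24 at rest and 0.24, 0.31, 0.34 and 0.45 after TAC. The wild-type groups were apart and basal knockout array 1 overlapped the TAC knockout arrays. The mean gap rose from -0.19 ± 0.07 (SD, n = 3) to 0.45 ± 0.13 (SD, n = 4) in wild type, but the two-sided exact permutation p of 0.0571 is the smallest these group sizes allow (0.229 adjusted over 4 comparisons). In knockout the mean gap was -0.01 ± 0.25 and 0.33 ± 0.09 (exact permutation p = 0.114, adjusted 0.229). Knockout and wild type differed in the gap by 0.18 at rest (exact permutation p = 0.4) and by -0.11 after TAC (exact permutation p = 0.257). The files do not say which Sirt5 transcripts each probe set reads.

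**Figure D3:**
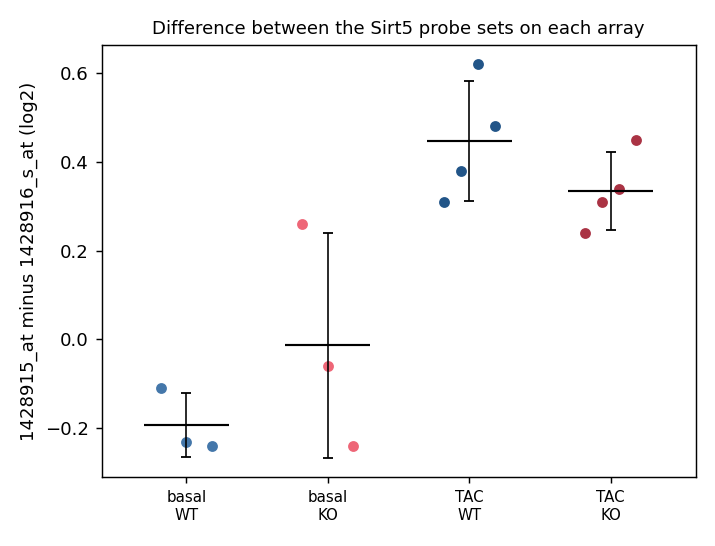
Difference between the Sirt5 probe sets on each array (y axis, 1428915_at minus 1428916_s_at, log2) by group (x axis); points are arrays, lines means and bars 1 SD. The TAC arrays lie between 0.24 and 0.62, and of the 6 basal arrays only knockout array 1, at 0.26, reaches that range. The 2 probe sets share no scale, so only changes of the gap can be read.

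Sirt1, the nuclear deacetylase of PGC-1alpha, p53 and FoxO factors, read 6.90, 6.90 and 6.67 in basal wild type and 7.50, 7.44, 6.66 and 7.09 after TAC. In knockout it read 6.83, 6.79 and 6.73 at rest and 7.10, 6.92, 6.84 and 7.03 after TAC. TAC wild-type array 3 was the lowest of the wild-type arrays, and the other 3 TAC arrays were above all basal ones. The difference of 0.35 in wild type (interval -0.01 to 0.71) did not pass the test (limma adjusted p = 0.0972). It was 0.52 without array 3 (limma adjusted p = 0.00577) and 0.56 with arrays weighted by their fit (limma adjusted p = 0.00303). Either fit would add a higher sirtuin to the calls. In knockout the groups did not overlap, yet the difference of 0.19 did not pass either (limma adjusted p = 0.374).

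Sirt7, a nucleolar sirtuin that acts on histones and on ribosomal RNA transcription, read 7.73, 7.36 and 7.39 in basal wild type and 7.50, 7.48, 7.97 and 7.37 after TAC. In knockout it read 7.32, 7.45 and 7.39 at rest and 7.68, 7.71, 7.62 and 7.69 after TAC. TAC wild-type array 3 was the highest of all arrays. The wild-type difference was 0.09 (limma adjusted p = 0.616), and it turned to -0.04 without array 3 and to -0.07 after quantile normalization. In knockout it was 0.29 with groups that did not overlap (interval -0.01 to 0.58, limma adjusted p = 0.104). It passed without TAC wild-type array 3 (limma adjusted p = 0.0354), which enters only through the shared spread. The knockout difference also passed when the knockout arrays were fitted alone and when arrays were weighted by their fit. In these fits 47.9% and 54.8% of all probe sets were called. Groups that do not overlap were common in the knockout comparison, at 52.4% of all probe sets, 27.5% higher and 24.9% lower, and 2 and 4 of the 8 sirtuin probe sets.

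Hsp22 loss at rest changed no sirtuin by limma's test, where 2 of 24525 probe sets, 0.00815%, passed, and 1 of 8 sirtuin probe sets (Sirt4) against 5.70% of all had an unadjusted p under 0.05. Sirt4 showed the widest sirtuin difference, 0.36 higher in knockout (interval 0.05 to 0.67, limma adjusted p = 0.841), and its 3 knockout arrays were above its 3 wild-type arrays. Without basal knockout array 3, which leaves arrays of 1 date, it was 0.38 (limma adjusted p = 0.841) and again no sirtuin passed. Sirt6 (-0.24), Sirt5 1428916_s_at (-0.20) and Sirt2 (-0.13) were lower on every knockout array than on any wild-type array (limma adjusted p = 0.908, 0.988 and 0.997). Non-overlapping groups, 4 of the 8, occurred in 13.0% of all probe sets, 7.24% higher and 5.80% lower, and this count is no call. For Sirt3 the basal means were 9.57 ± 0.15 and 9.58 ± 0.07 (SD, n = 3 each), a difference of -0.01 with an interval of -0.45 to 0.43. Fibroblast averages were 10.53 to 10.77 on the basal knockout arrays and 9.84 to 10.36 on the basal wild-type arrays. Macrophage averages were 9.02 to 9.14 and 8.67 to 8.88. The part of these cells in the sirtuin differences at rest was not tested.

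Hsp22 loss after TAC changed no sirtuin by limma's test either, where 7 probe sets, 0.0285%, passed, and 1 of 8 sirtuin probe sets (Sirt5 1428915_at) against 8.18% of all had an unadjusted p under 0.05. None of the 8 had groups that did not overlap, against 4.19% of all probe sets. Sirt3 averaged 8.36 ± 0.25 in TAC knockout and 8.73 ± 0.40 in TAC wild type (SD, n = 4 each), a difference of -0.38 (interval -0.76 to 0.00, limma adjusted p = 0.616). It was -0.24 without TAC wild-type array 1, -0.26 without TAC knockout array 4 and -0.54 without TAC wild-type array 3, and passed in none of these (limma adjusted p = 0.751, 0.643 and 0.126). Sirt5 1428915_at averaged 9.43 ± 0.09 and 9.78 ± 0.21, a difference of -0.35 (interval -0.63 to -0.07, limma adjusted p = 0.505). Macrophage averages lay between 10.13 and 10.44 on the TAC knockout arrays and between 9.28 and 11.11 on the TAC wild-type arrays. Fibroblast averages did not overlap, at 11.80 to 11.98 on the TAC knockout arrays and 10.88 to 11.70 on the TAC wild-type arrays. Of 8 fibroblast markers 5 had an unadjusted p under 0.05 by limma, and none passed after adjustment. The part of these cells in the sirtuin differences was not tested. Arrays were also weighted by their fit, which gave TAC wild-type arrays 1 to 4 weights of 0.758, 2.65, 0.222 and 0.534. The TAC knockout arrays had weights of 1.15, 1.28, 4.19 and 0.442, so 1 array weighed most in each of these groups. With these weights Sirt1 (-0.46), Sirt3 (-0.48) and Sirt5 1428915_at (-0.35) passed (limma adjusted p = 0.0194, 0.0219 and 0.0415), as did 2956 of all probe sets, 12.1%. The other differences lay between -0.24 for Sirt5 1428916_s_at and 0.21 for Sirt6, and Sirt2, at -0.01 (interval -0.27 to 0.24), was 0.05 after quantile normalization.

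The effect of Hsp22 loss after TAC minus its effect at rest passed for no sirtuin and, by limma, for 0 of 24525 probe sets, 0%, although 1937 of them, 7.90%, and 1 of the 8 (Sirt6), had an unadjusted p under 0.05. Sirt6 had the highest value, 0.44 (interval 0.08 to 0.81, limma adjusted p = 0.56), which is also the amount by which its TAC difference in knockout exceeded that in wild type. The call of Sirt6 in wild type and not in knockout, and of Sirt4 in knockout and not in wild type (-0.25, limma adjusted p = 0.798), is thus not shown to differ between genotypes. For Sirt3 the value was -0.36 (interval -0.95 to 0.22, limma adjusted p = 0.794).

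The order of the 4 groups within a probe set was described by means. Sirt3 went from 9.58 (basal wild type) and 9.57 (basal knockout) to 8.73 (TAC wild type) and 8.36 (TAC knockout), and neither neighbouring pair of genotypes differed by the test. Sirt2 went from 10.59 and 10.46 at rest to 9.97 and 9.96 after TAC. Sirt4 stood at 8.22 in basal knockout, 7.86 in basal wild type, 7.81 in TAC knockout and 7.70 in TAC wild type. Sirt6 stood at 6.96 in basal wild type, 6.74 in TAC knockout, 6.72 in basal knockout and 6.53 in TAC wild type. Levels were not ranked between sirtuins, because probe sets of different genes have no common scale.

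The neighbour of Sirt3 had differences of the opposite sign. Psmd13 was read by 3 probe sets past the filter, all with positive TAC differences. On the brightest, 1422459_a_at, these were 0.26 in wild type (limma adjusted p = 0.15) and 0.34 in knockout (limma adjusted p = 0.0708). Probe set 1437220_x_at rose in knockout (0.50, limma adjusted p = 0.0153) and 1445729_at in wild type (0.66, limma adjusted p = 0.00682). Over the 14 arrays Sirt3 and Psmd13 1422459_a_at had r = -0.853, and r = -0.752 after group means were removed. The other Psmd13 probe sets gave r = -0.835 and -0.598 (1437220_x_at) and r = -0.463 and 0.807 (1445729_at). The probe sets of Psmd13 thus disagree in sign within groups, and 1445729_at was highest in TAC wild type on array 1 (7.27) and lowest on array 3 (6.35), as Sirt3 was. On 1422459_a_at, Psmd13 values in wild type were 9.18 to 9.34 at rest and 9.22 to 9.78 after TAC, and in knockout 9.21 to 9.47 and 9.41 to 9.90. The array lowest for Sirt3, TAC knockout array 4 at 8.0, was the highest for this Psmd13 probe set at 9.90.

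The neighbour of Sirt2 fell in wild type as Sirt2 did. Nfkbib 1421266_s_at read 9.16 to 9.17 in basal wild type and 8.62 to 8.90 after TAC, a fall of 1.35-fold (-0.43, limma adjusted p = 0.00999). In knockout it read 8.89 to 9.16 at rest and 8.44 to 8.93 after TAC (-0.31, limma adjusted p = 0.0531). Its correlation with Sirt2 was r = 0.841 over the 14 arrays and r = 0.363 after group means were removed. Ankrd24, whose start lies 974 bases from a start of Sirt6, had a difference of -0.33 in wild type (limma adjusted p = 0.0673) and -0.38 in knockout (limma adjusted p = 0.0451) on its brightest probe set, 1425731_at. Gm42007, a long non-coding RNA that starts 153 bases from Sirt4, had no probe set.

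**Figure D4:**
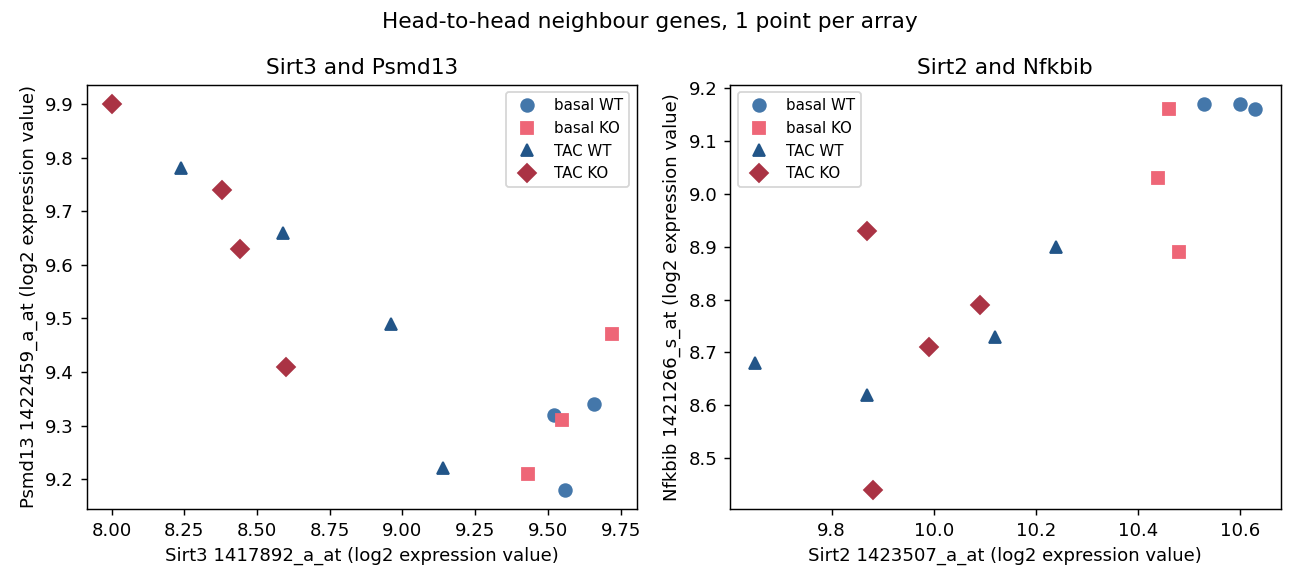
Log2 expression values of Psmd13 (probe set 1422459_a_at) against Sirt3 and of Nfkbib (1421266_s_at) against Sirt2, 1 point per array with the groups marked by colour and shape. On these probe sets Psmd13 is high where Sirt3 is low (r = -0.853, and -0.752 after group means were removed). Psmd13 1445729_at, not shown, gave r = -0.463 and 0.807 in the same order. Nfkbib is high where Sirt2 is high (r = 0.841, and 0.363 after group means were removed). The 14 arrays share groups and dates.

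The genes whose values followed each sirtuin most closely over the 14 arrays are given as a description. For Sirt3 they were Mrpl4, a mitochondrial ribosomal protein (r = 0.992), Dele1, a mitochondrial stress relay (r = 0.989), and Sdr39u1 (r = 0.989), and the correlations after removal of group means were 0.965, 0.952 and 0.98. For Sirt2 they were Uqcrc1, a core subunit of respiratory complex III (r = 0.98), the anion exchanger Slc4a3 (r = 0.978) and Coq6, an enzyme of coenzyme Q synthesis (r = 0.978). The closest for Sirt1 was Zdhhc17 (r = 0.894), for Sirt4 Ksr2 (r = 0.915), for Sirt6 H2-M10.1 (r = 0.902) and for Sirt7 Cd47 (r = 0.884). Sirt5 1428915_at had the weakest of these leading correlations, with Timm10 (r = 0.789).

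Over 6 lists of genes around the sirtuins, 41 of 83 genes (49.4%) were called after TAC in wild type and 38 (45.8%) in knockout, close to the 50.2% and 43.2% of all probe sets. The list for synthesis and salvage of NAD+, the sirtuin co-substrate, also holds enzymes that convert or cleave NAD+ or NADH and a carrier. Of its 12 measured genes, 2 rose and 3 fell in each genotype. This was a smaller share than among all probe sets in wild type and a similar one in knockout. Nmrk2, the muscle kinase for nicotinamide riboside, rose 11.5-fold in wild type (3.52, SE 0.49, limma adjusted p = 0.000169) and 7.23-fold in knockout (2.85, SE 0.49, limma adjusted p = 0.000887). Nampt, the rate-limiting salvage enzyme, fell 2.27-fold in wild type (-1.19, limma adjusted p = 0.0125), and in knockout its difference of -0.89 did not pass (limma adjusted p = 0.0504). Naprt, which uses nicotinic acid, fell in both (-0.59 and -0.87), and Nudt12, which cleaves NADH, rose in both (1.08 and 0.57). Slc25a51, the mitochondrial NAD+ carrier, fell in knockout (-0.64, limma adjusted p = 0.0012) and had a difference of -0.25 in wild type (limma adjusted p = 0.0896). Medians of the 12 were -0.16 and -0.35.

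Other enzymes that consume NAD+ or its product nicotinamide numbered 10, of which 6 rose and 1 fell in wild type and 1 rose and 1 fell in knockout, where 50.2% and 43.2% of all probe sets were called. Nnmt, which methylates nicotinamide, rose in both (0.71 and 1.38). The ADP-ribosyltransferase-family genes Parp14 (0.89), Parp12 (0.80) and Parp9 (0.80) rose in wild type, and in knockout their differences were -0.26, 0.21 and 0.09 (limma adjusted p = 0.368, 0.353 and 0.735). The difference between genotypes passed for none of the 10, at limma adjusted p = 0.465 for Parp14. Medians were 0.52 in wild type and 0.15 in knockout.

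Mitochondrial proteins known as sirtuin substrates were measured for 18 genes, of which 8 fell in each genotype and 1 rose in wild type, a share near the 50.2% and 43.2% of all probe sets, with medians of -0.43 and -0.56. Of all probe sets, 22.4% and 20.2% were called lower. Hadha, of the trifunctional enzyme of fatty acid oxidation, fell in both (-1.23 and -1.41), as did Aldh2 (-1.04 and -0.88), the cyclophilin D gene Ppif (-0.57 and -0.82) and Mrpl10 (-0.36 and -0.51). Idh2, the NADP+-dependent isocitrate dehydrogenase, fell in wild type (-1.06, limma adjusted p = 0.0221) and was at -0.82 in knockout (limma adjusted p = 0.0707). Sod2, the manganese superoxide dismutase and a Sirt3 substrate, did not pass (-0.40 and -0.39, limma adjusted p = 0.0944 and 0.109).

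Nuclear and cytosolic substrates and partners were measured for 22 genes, with 4 higher and 5 lower in wild type and 3 higher and 8 lower in knockout, and medians of -0.06 and -0.14. These shares too were near those of all probe sets (50.2% and 43.2%). Ppargc1a, which encodes PGC-1alpha, the Sirt1-deacetylated co-activator of mitochondrial genes, fell 4.72-fold in wild type (-2.24, SE 0.43, limma adjusted p = 0.00116) and 3.22-fold in knockout (-1.69, SE 0.43, limma adjusted p = 0.00748). Hif1a, the hypoxia-inducible factor, rose in both (1.76 and 1.60), as did Tuba1a, an alpha-tubulin (1.29 and 1.53). Ubtf, a factor of ribosomal RNA transcription, fell in both (-0.39 and -0.46).

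The zinc-dependent histone deacetylases, which do not use NAD+, were measured for 10 genes, and 2 rose in each genotype while 5 fell in wild type and 6 in knockout, with medians of -0.08 and -0.37, where 50.2% and 43.2% of all probe sets were called. Hdac2 rose (0.94 and 0.60), and the genes of Hdac5 (-1.14 and -1.02), Hdac11 (-1.32 and -1.08) and Hdac4 (-0.97 and -1.19) fell. Among 11 lysine acetyltransferases, which add the groups that sirtuins remove, 2 rose and 2 fell in each genotype, a share below or near that of all probe sets, with medians of 0.16 and -0.04. Kat2b (0.81 and 0.73) and Kat6b (0.60 and 0.81) rose, and Ncoa1 (-0.43 and -0.60) and Kat5 (-0.38 and -0.42) fell. By limma, none of the 83 genes measured in these 6 lists passed for Hsp22 loss at rest, after TAC or in the difference of both. An unadjusted p under 0.05 was found for 3, 7 and 8 of the 83, against 5.70%, 8.18% and 7.90% of all probe sets.

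**Figure D5:**
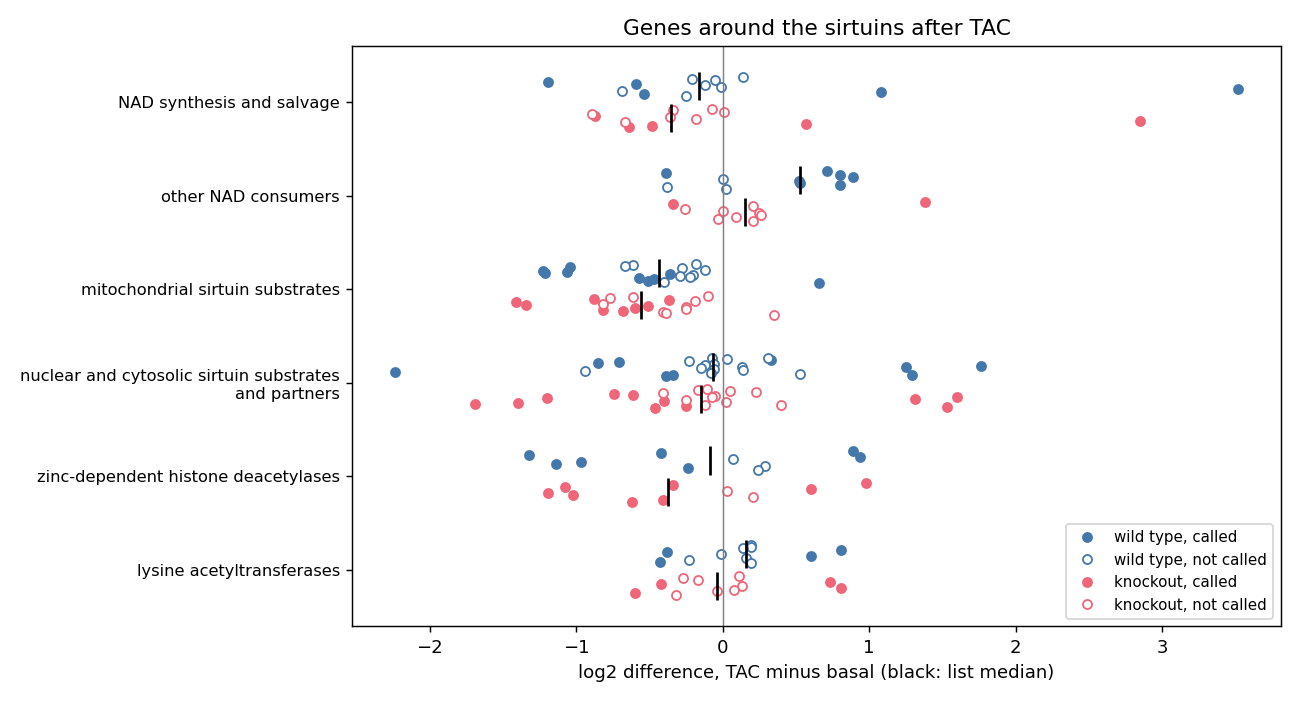
Log2 difference after TAC (x axis) of the genes in the 6 lists (y axis), in wild type and in knockout; filled points passed the limma test and black bars are list medians. Mitochondrial substrates have the lowest list medians, -0.43 in wild type and -0.56 in knockout, and Nmrk2 of NAD+ synthesis is the farthest point, at 3.52 in wild type and 2.85 in knockout.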

How the data were processed

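Total RNA from left ventricle was read on 14 Affymetrix Mouse430_2 arrays. The authors deposited log2 expression values, made with RMA per the submitters' processing notes; the sources used here do not give its version or say which arrays were normalised together. No probe intensities were used. Symbols came from the platform annotation, in which 34958 of 45101 probe sets have 1 symbol, 932 several and 9211 none.

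Probe sets above the table's median log2 value of 5.75 on at least 3 arrays were kept (24525), without 64 control probe sets. They were fitted in limma 3.58.1 (R 4.3.3) with 4 group means, eBayes and Benjamini-Hochberg adjustment over all kept probe sets, and called at an adjusted p under 0.05. A gene outside the sirtuins stands for its brightest kept probe set. The fit was tested on simulated data. The number of arrays limits the precision, and intervals are at 95%.

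The sirtuins, the 6 lists (NAD+ synthesis, other NAD+ consumers, mitochondrial substrates, nuclear and cytosolic substrates, zinc-dependent deacetylases, acetyltransferases) and the 9 cell type marker lists were chosen with earlier results of these data known. Named genes were every sirtuin probe set, Hspb8, genes on the other strand starting within 1000 bases of a sirtuin start, the 3 genes best correlated with each sirtuin, and in each list the 4 with the smallest p after TAC plus Nampt, Nmrk2, Ppargc1a, Sod2 and Idh2. Head-to-head neighbours and sequences came from RefSeq tables of GRCm38.p6. Alternatives covered the filter, the probe sets of a gene, the scaling, the arrays fitted, the eBayes prior, array weights, a replicate block, a fold threshold and leaving out each array.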

Additional observations from a re-analysis of the deposited data

How the results depend on the processing

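Sirt3 and Sirt2 kept their falls after TAC in both genotypes under all 24 refits, with Sirt3 between -1.03 and -0.67 in wild type and between -1.31 and -1.09 in knockout, and Sirt2 between -0.80 and -0.49 and between -0.59 and -0.44. A fold threshold of 1.5 ended the knockout call of Sirt2, which was 1.42-fold lower. The 4 sirtuin probe sets called after TAC in wild type became 2 with a fold of at least 1.5 and 2 to 4 when single arrays were left out, and the 4 in knockout became 1 and 2 to 5. With single arrays left out, the share of all probe sets called lay between 39% and 54.5% in wild type and between 33% and 48.3% in knockout. The share of all probe sets under the fold threshold was not counted. After TAC, knockout against wild type gave 3 calls in place of 0 with array weights. The wild-type call of Sirt5 1428916_s_at was also lost with median centring and with the arrays of the comparison alone (limma adjusted p = 0.0684 and 0.0971). Over all probe sets, the 7 calls of knockout against wild type after TAC became 168 without TAC wild-type array 3, 35 without TAC wild-type array 4 and 2956 with array weights. After TAC in wild type, 12300 of 24525 probe sets (50.2%) were called, 7175 of 12948 (55.4%) with the stricter filter and 6214 of 12260 (50.7%) with 1 probe set per gene. In knockout these counts were 10593 (43.2%), 6816 (52.6%) and 5451 (44.5%). The share of higher calls in wild type was 55.4%, and it was 66.5% with the stricter filter and 41.1% with no filter. Median centring moved the median of all probe sets after TAC in wild type to 0.12, the stricter filter to 0.16 and no filter to -0.13.

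Small differences changed sign. Quantile normalization turned Sirt7 (TAC in wild type) to -0.07, Sirt6 (TAC in knockout) to -0.02, Sirt2 (knockout after TAC) to 0.05 and the difference of knockout effects of Sirt5 1428916_s_at to 0.05. With single arrays left out, Sirt7 ranged from -0.04 to 0.21 (TAC in wild type), Sirt5 1428915_at from -0.24 to 0.03 and Sirt6 from -0.05 to 0.11 (TAC in knockout). For knockout at rest, Sirt3 ranged from -0.09 to 0.05, Sirt5 1428915_at from -0.17 to 0.10 and Sirt7 from -0.17 to 0.01. Sirt2 ranged from -0.12 to 0.08 for knockout after TAC, and Sirt5 1428916_s_at from -0.19 to 0.05 for the difference of knockout effects. The cause was not tested.

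Replicate numbers are shared between groups, but arrays with the same number did not deviate together throughout (r = 0.579, -0.0197, -0.0848 and 0.503 for the 4 TAC pairs), so the numbers were not taken as pairs. With the replicate block 3 sirtuin probe sets were called after TAC in each genotype, since Sirt5 1428916_s_at missed the threshold (limma adjusted p = 0.0677 and 0.057). In that fit 45.5% of all probe sets were called in wild type and 38.2% in knockout, against 50.2% and 43.2% without the block.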
